A study of Mus musculus with 16 samples.

Results

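The genes described here were higher with leukaemia inhibitory factor (LIF), but lower after LIF withdrawal, in mouse embryonic stem cell (ESC) lines that lack the coiled coil of MBD3 than in lines that retain it. A gene was a member where its highest log2 signal over 16 arrays was above 7, the mean of the lacking lines was at least 0.5 log2 above that of the retaining lines with LIF, and at least 0.5 below it without LIF. Igf2, Tagln, Acta2, Thbs1, Gbp2 and symbols beginning Krt, Slc, Serpin, Col, Lam or Cldn were left out by name. The rule took 100 of 12137 genes above that signal (0.824%), out of 30102 genes measured. Of the 100 members, 97 are protein-coding and 3 are pseudogenes, which are not named. A further 19 genes met the thresholds and were left out by name, and 37 genes showed the opposite pattern. The members were thus chosen by their measured class means in both conditions, and the differences between the classes are given below as descriptions with no test.

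The study placed 8 ESC lines on 16 arrays, 1 array per line with LIF and 1 after 12 days without it. EBRTcH3, a male 129SV line, was the wild type. The other 7 lines derive from it, are null for every form of MBD3 (Mbd3abc-KO) and carry a stably introduced vector that encodes an intact isoform (lines Mbd3a, Mbd3b and Mbd3c) or isoform a with the methyl-CpG-binding domain removed (deltaMBD), the coiled coil removed (deltaCC), both removed (deltaMBD&CC), or nothing (Empty). The retaining lines were EBRTcH3, Mbd3a, Mbd3b, Mbd3c and deltaMBD, and the lacking lines were Empty, deltaCC and deltaMBD&CC, all grown in the same medium with or without LIF. The labels do not give the vector's promoter or the number of clones behind a line, and they name no second culture. Errors and p-values below therefore measure the spread between lines of the same class, unless the class is left out of the model. Values from the retaining lines are listed in the order EBRTcH3, Mbd3a, Mbd3b, Mbd3c and deltaMBD, and those from the lacking lines in the order Empty, deltaCC and deltaMBD&CC. Every level is a log2 signal, and every difference or response (without minus with LIF) is in log2 units, so that 1 unit is a doubling. Of a line or a class, rising and falling state only the sign of the response; tested calls are named as such.

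MBD3 is a subunit of NuRD, a complex that joins histone deacetylation to nucleosome remodelling and is needed by ESCs to leave self-renewal. LIF holds mouse ESCs in that state through STAT3, and cells deprived of it begin to express genes of early lineages. Pmp22, the leading member, encodes a small tetraspan membrane protein, known from the myelin of peripheral nerve, where changes in its dosage cause inherited neuropathies, and also found at epithelial junctions.

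Array medians were 4.72 to 4.85 and correlations between arrays 0.971 to 0.995. ESC markers (8 of 8 measured) averaged 11.7 to 11.9 in retaining lines with LIF and 10.96 to 11.5 without, and 11.8 to 12.0 and 11.5 to 11.7 in lacking lines. Trophectoderm markers (7 of 8 measured, among them the member Hand1) averaged between 5.85 and 6.09 with LIF and between 6.51 and 8.14 without it in retaining lines. In lacking lines they averaged between 5.95 and 6.22 with LIF and between 6.53 and 6.69 without. Primitive endoderm markers (7 of 8 measured, among them the member Dab2) reached 5.88 to 6.30 in retaining lines without LIF and stayed between 5.51 and 5.82 in every other group. Fibroblast markers (8 of 8, among them the member Pdgfrb) lay between 4.95 and 5.68 in all groups, neural and Schwann markers (4 of 6 measured) between 6.63 and 7.44, and blood markers (6 of 6) between 4.90 and 5.27. The part of such cells in the members' changes was not tested, and in bulk RNA fewer cells of a type and less RNA per cell cannot be told apart. Titles fall into a run of 10 arrays (EBRTcH3, Mbd3a, Mbd3b, Mbd3c, Empty) and one of 6 (deltaMBD, deltaCC, deltaMBD&CC).

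Promoter sequences are shown for 3 leading members, Pmp22, the calpain relative Capn6 and the annexin Anxa2, because they are among the members with the largest differences in response and each holds a TEAD or AP-1 motif, a choice made after values and letters were seen. These are the 250 bases before the annotated RefSeq start site in GRCm38.p6, written 5′ to 3′ on the gene's strand. Capitals mark the TEAD motif GGAATG (in Pmp22 in reverse, 173 bases before the start) and the AP-1 motif TGANTCA (58 bases before the start in Capn6, 95 in Anxa2).
Pmp22 (chr11:63128732-63128981, plus strand): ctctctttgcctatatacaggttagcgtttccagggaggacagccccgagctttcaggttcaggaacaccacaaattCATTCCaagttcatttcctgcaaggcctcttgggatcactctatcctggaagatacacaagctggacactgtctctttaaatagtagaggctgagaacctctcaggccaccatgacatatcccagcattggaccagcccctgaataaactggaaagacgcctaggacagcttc
Capn6 (chrX:143827413-143827662, minus strand): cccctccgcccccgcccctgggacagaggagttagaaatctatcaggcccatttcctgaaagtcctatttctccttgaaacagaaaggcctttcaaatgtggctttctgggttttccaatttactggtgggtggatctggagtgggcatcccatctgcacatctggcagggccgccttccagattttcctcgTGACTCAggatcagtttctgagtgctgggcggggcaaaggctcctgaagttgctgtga
Anxa2 (chr9:69453433-69453682, plus strand): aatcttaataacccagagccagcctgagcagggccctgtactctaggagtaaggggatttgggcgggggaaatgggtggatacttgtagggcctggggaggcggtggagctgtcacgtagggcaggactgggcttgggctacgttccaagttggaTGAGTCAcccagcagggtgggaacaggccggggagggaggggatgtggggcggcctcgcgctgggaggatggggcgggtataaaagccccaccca
Pmp22 has 4 listed start sites, and the one shown is the farthest upstream and holds 3 CG dinucleotides against 14, 14 and 27 for the others; the array does not tell them apart.

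The promoter table matched 76 members with 113 start sites, and 24 members had no entry. On either strand, TEAD GGAATG stood in 19.5% of member promoters and 12.6% of all 32851 promoters, and AP-1 TGANTCA in 7.08% and 6.75%. The TFAP2 motif GCCNNNGGC stood in 25.7% against 13.7%, the SP1/KLF motif GGGCGG, which can lie within longer GC-rich stretches, in 57.5% against 32.7%, and the E-box CACGTG in 7.08% against 6.02%. The GATA motif AGATAA stood in 2.65% against 9.99% and the TATA box TATAAA in 7.08% against 12.4%. The median number of CG dinucleotides, taking the start site with most in each gene, was 14.5 over the 76 members and 18.0 over 7955 genes above the signal minimum. The motif shares were set against all promoters and not against genes above the signal minimum, so the backgrounds differ. A match is a description of the letters only, and start sites of a gene overlap in part.

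As a group, the members rose in the retaining lines and moved little in the lacking lines. The median level over members was 6.46 with LIF and 8.29 without in retaining lines, and 7.25 and 7.34 in lacking lines. Over members the median response was 1.84 in retaining and 0.20 in lacking lines, against 0.03 and 0.00 over the 12137 genes. The retaining response was at least 1 in 92 of 100 members (5.25% of the 12137 genes), and 99 rose in each of the 5 retaining lines. In the lacking lines 73 members stayed within 0.5 of 0, 21 rose by 0.5 or more and 6 fell by 0.5 or more. A failure to rise therefore describes most members and not all: 67 combined a retaining response of at least 1 with a lacking response within 0.5. Csf1, Irgm1, Chst15, Kcnk1 and Lef1 still responded by 1.03 to 1.40 there, and Mal, Nt5e, Hmgn3, Pttg1, Cpe and Aldoc by -1.72 to -0.58.

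By median level over members, retaining arrays were lowest with LIF and highest without it, as the heat map shows. Lacking arrays lay in between in both conditions, though single members such as Cpe departed from this order.

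**Figure D1:**
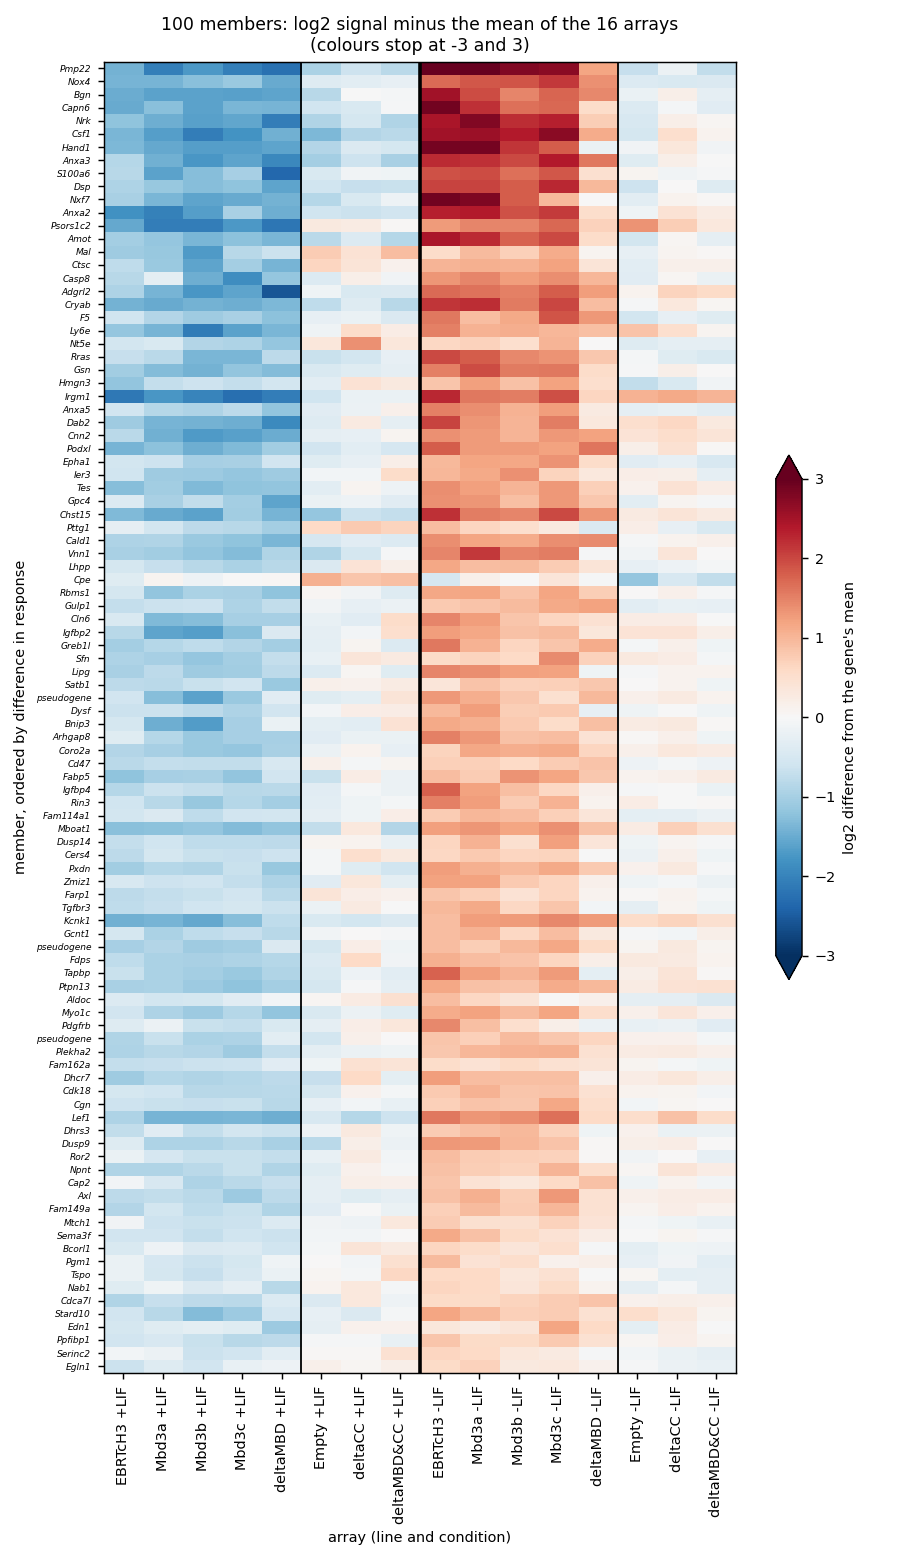
Log2 signal of each of the 100 members on each of the 16 arrays, minus that gene's mean, with members (rows) in order of the difference in response and arrays (columns) by condition and class; colours stop at -3 and 3, thin lines part the classes and the thick line parts the conditions. The median level over members runs from 6.46 to 8.29 in retaining lines and from 7.25 to 7.34 in lacking lines, and deltaMBD without LIF is the palest of the 5 retaining columns there.

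The difference with LIF ran from 0.51 to 2.11 (median 0.72) and that without LIF from -3.23 to -0.51 (median -0.79). The 3 lacking lines lay above all 5 retaining lines with LIF in 86 members (14.6% of the 12137 genes) and below them without LIF in 75 (20.2%), with both true of 63. These are counts that the rule favours, and nothing is read from them, here or by role below. The share of all genes with both true was not computed. The 3 lacking responses lay below the 5 retaining ones in 98 members (15% of genes). Set against the rise that retaining lines made, the excess already present in lacking lines with LIF had a median of 41.2%. In 99 members the lacking lines without LIF were still above the retaining lines with LIF, and in 4 (Mal, Nt5e, Pttg1 and Cpe) the lacking lines with LIF were above the retaining lines without.

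At the edges of the rule, Mtch1 and Cgn were just inside with LIF (0.51 each) while Rnf128 and Cxcl16 were just outside (0.50 each, 0.4993 and 0.4987 unrounded). Without LIF, Stard10 and Fam162a were just inside (-0.51 each) and Tmem54 and Fundc2 just outside (-0.50 each). By highest signal, Dhrs3 (7.01) and Fam149a (7.02) were inside and Pts (7.00) and Zfp677 (6.89) outside. The highest array was a retaining one without LIF in 97 members, and 75 members would reach the signal minimum without those arrays. In 8 members (Bgn, Capn6, Chst15, Irgm1, Nox4, Nxf7, Psors1c2 and Vnn1) the retaining mean with LIF, 3.85 to 4.79, was below the highest array median of 4.85, so these levels may be near background and their differences with LIF are less certain. On chromosome X lay 8% of members and 4.68% of the 12137 genes.

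Among receptors and other surface proteins, Pmp22 had the largest difference in response of all members. Its log2 signal with LIF was 6.55, 5.92, 6.26, 5.92 and 5.73 in retaining lines and 7.03, 7.36 and 7.16 in lacking lines. Without LIF it was 11.42, 11.32, 10.76, 10.68 and 9.15 and 7.28, 7.79 and 7.23. The classes did not overlap in either condition, their order was opposite in each, and deltaMBD was the lowest retaining line without LIF. The lacking lines held 24.1% of the retaining rise as excess with LIF, and their own response was 0.25 ± 0.18 (SD, n = 3).
The plot of the 12 members with the largest difference in response shows the same arrangement for genes of several functions.

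**Figure D2:**
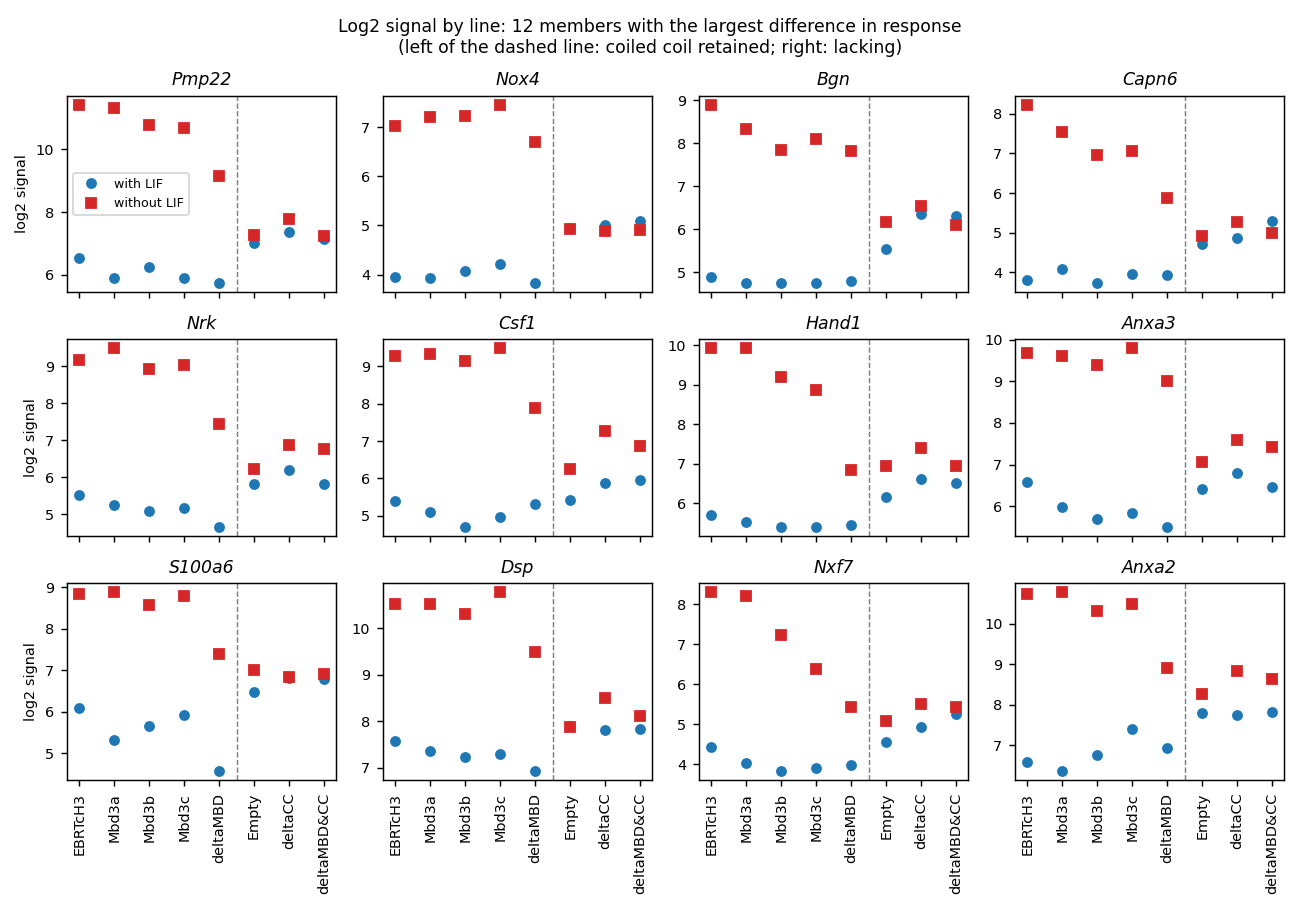
Log2 signal (vertical axis) of the 12 members with the largest difference in response, by line (horizontal axis), with LIF as blue circles and without LIF as red squares, 1 array per point. For Pmp22 the retaining lines go from at most 6.55 to at least 9.15 while the lacking lines stay between 7.03 and 7.79.

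Mal, a raft-associated protein of myelin and epithelial apical sorting, crossed between the classes. Its signal with LIF was 5.17, 5.10, 4.56, 5.41 and 5.60 in retaining and 7.01, 6.69 and 7.17 in lacking lines. Without LIF it was 6.80, 7.20, 6.96, 7.35 and 6.33 and 6.01, 6.33 and 6.28, so that every retaining line rose, every lacking line fell, and the classes overlapped without LIF at deltaMBD and deltaCC, both 6.33. Nt5e, the ecto-nucleotidase CD73, did likewise, from 5.38, 5.47, 5.04, 5.00 and 4.75 to 6.53, 6.62, 6.42, 6.95 and 5.93 in retaining lines and from 6.25, 7.30 and 6.25 to 5.54, 5.64 and 5.66 in lacking lines. Ly6e, a GPI-anchored surface protein, had a high level throughout, at 8.70, 8.47, 7.76, 8.26 and 8.49 with LIF and 11.38, 10.92, 10.95, 10.86 and 10.78 without in retaining lines. In lacking lines it was 9.74, 10.42 and 10.10 and 10.72, 10.38 and 9.96, so that Empty (10.72) came close to deltaMBD (10.78) without LIF. The other members of this role were Adgrl2, a latrophilin adhesion receptor; Epha1, an ephrin receptor; Axl and Pdgfrb, receptor tyrosine kinases; Ror2, a Wnt5a receptor; Tgfbr3, the TGF-beta co-receptor betaglycan; Gpc4, a glypican; and Kcnk1, a potassium channel. Over all 12 the retaining response ran from 1.05 to 4.59 (median 1.77) and the lacking response from -0.99 to 1.05 (median 0.02), and 8 had classes apart in both conditions.

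None of the 7 relatives of Pmp22 in the PMP22/EMP tetraspan family was a member. Averaged over the 8 lines, LIF withdrawal raised 5 of the 8 tested and lowered 0 by limma, with Pmp22 itself among the 5 (median 0.86, against 0.02 over all genes tested, of which 19.8% rose and 14.1% fell). Pmp22 rose by 2.96 ± 0.17 (SE, n = 8, adjusted p = 4.75e-07), Emp3 by 1.72 ± 0.13 (adjusted p = 3.74e-06), Perp, a p53-induced desmosomal protein, by 1.05 ± 0.09 (adjusted p = 1.18e-05), Tmem47 by 0.95 ± 0.12 (adjusted p = 0.000147) and Emp2 by 0.78 ± 0.09 (adjusted p = 7.32e-05). Emp1, Lim2 and Tmem114 did not pass (-0.22, 0.06 and 0.19). Levels with and without LIF went from 6.41 to 8.57 for Emp3 in retaining lines and from 5.92 to 6.90 in lacking lines. For Emp2 they went from 6.99 to 8.44 and from 7.32 to 6.98, and for Perp from 8.23 to 9.84 and from 8.71 to 8.80. The lacking mean was thus above the retaining mean with LIF for Emp2 and Perp and below it for Emp3, and neither Emp2 nor Perp was 0.5 apart with LIF. For Emp1 the lacking mean was 8.65 against 7.93 with LIF and 7.93 against 8.01 without.

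The group of calcium-dependent membrane proteins and their relatives held 3 annexins (Anxa2, Anxa3, Anxa5), which bind phospholipids, and the annexin partner S100a6. It also held Capn6, a calpain relative that stabilizes microtubules, and dysferlin (Dysf) of membrane repair. Anxa2 had log2 signals with LIF of 6.58, 6.36, 6.75, 7.41 and 6.93 in retaining and 7.80, 7.74 and 7.81 in lacking lines. Without LIF these were 10.72, 10.77, 10.30, 10.49 and 8.91 and 8.26, 8.82 and 8.64, so the classes were apart in both conditions, but deltaMBD (8.91) and deltaCC (8.82) nearly met without LIF. S100a6 went from 6.09, 5.31, 5.65, 5.92 and 4.56 to 8.83, 8.88, 8.58, 8.78 and 7.40 in retaining lines and from 6.47, 6.82 and 6.79 to 7.00, 6.83 and 6.90 in lacking lines. The lacking lines thus stayed between 6.47 and 7.00 throughout, and deltaMBD was the lowest retaining line in both conditions. Capn6, near the bottom of the scale with LIF, went from 3.82, 4.08, 3.72, 3.95 and 3.94 to 8.23, 7.53, 6.97, 7.06 and 5.88 in retaining lines and from 4.72, 4.87 and 5.30 to 4.92, 5.28 and 5.00 in lacking lines. Anxa3 overlapped with LIF, with EBRTcH3 at 6.57 above Empty at 6.41 and deltaMBD&CC at 6.46, and went to 9.67, 9.61, 9.40, 9.79 and 9.00 against 7.05, 7.60 and 7.41 without LIF. The 6 had retaining responses of 1.42 to 3.58 and lacking responses of -0.20 to 0.80. Of 16 tested annexin, S100 and galectin genes, 4 were members, and 11 rose and 1 fell over the 8 lines by limma (median 0.99; 19.8% of all genes rose and 14.1% fell).

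The actin and cell shape group held 11 members, among them calponin 2 (Cnn2), caldesmon (Cald1) and gelsolin (Gsn), which regulate actin filaments, the motor Myo1c, the small GTPase Rras and Amot, the angiomotin that restrains YAP at junctions. Amot went from 5.94, 5.78, 5.59, 5.73 and 5.59 with LIF to 9.40, 9.19, 8.71, 8.93 and 7.49 without it in retaining lines. In lacking lines it went from 6.14, 6.55 and 6.09 to 6.39, 7.00 and 6.68. Its classes were apart in both conditions, narrowly so with LIF, where EBRTcH3 (5.94) lay just below deltaMBD&CC (6.09). Cnn2 had a flatter spread without LIF, at 10.88, 10.78, 10.52, 10.80 and 10.71 in retaining and 9.92, 10.03 and 9.89 in lacking lines, after 8.71, 8.06, 7.81, 7.89 and 8.03 and 9.24, 9.27 and 9.60 with LIF. Over the 11 the median response was 2.34 in retaining and 0.38 in lacking lines, and 9 had classes apart in both conditions. Of 19 tested SRF, YAP and actin genes, 18 rose and 0 fell over the 8 lines by limma (median 0.89; 19.8% of all genes rose and 14.1% fell), and only Cnn2 was a member.

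Junction and adhesion members were desmoplakin (Dsp), which ties desmosomes to intermediate filaments, cingulin (Cgn) of tight junctions, the sialomucin podocalyxin (Podxl), the liprin Ppfibp1, the integrin ligand nephronectin (Npnt) and Cd47. Dsp went from 7.57, 7.37, 7.23, 7.30 and 6.93 to 10.52, 10.52, 10.31, 10.77 and 9.48 in retaining lines and from 7.90, 7.82 and 7.83 to 7.89, 8.51 and 8.12 in lacking lines, with no overlap in either condition. Podxl went from 6.96, 7.14, 6.91, 7.05 and 7.32 to 10.19, 9.64, 9.63, 9.57 and 9.97 and from 7.78, 8.04 and 7.86 to 8.53, 8.83 and 8.40, and here deltaMBD was the second highest retaining line without LIF. All 6 of the group had classes apart in both conditions.

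Secreted and matrix members included Bgn, a small leucine-rich matrix proteoglycan, and Csf1, the macrophage growth factor, which placenta and uterus also make. Bgn was 4.88, 4.76, 4.76, 4.74 and 4.80 in retaining lines with LIF, close to the array medians, against 5.53, 6.35 and 6.31 in lacking lines. Without LIF it was 8.90, 8.32, 7.84, 8.11 and 7.81 and 6.17, 6.54 and 6.11. Csf1 differed by 0.67 with LIF, at 5.39, 5.11, 4.69, 4.96 and 5.31 against 5.42, 5.89 and 5.96, where the retaining EBRTcH3 (5.39) nearly met Empty (5.42). Without LIF it was 9.27, 9.33, 9.14, 9.48 and 7.88 against 6.24, 7.26 and 6.86, so lacking lines rose too, by 1.03 ± 0.30 (SD, n = 3). The other 7 were the insulin-like growth factor binding proteins Igfbp2 and Igfbp4, the matrix peroxidase Pxdn, endothelin 1 (Edn1), the semaphorin Sema3f, endothelial lipase (Lipg) and coagulation factor V (F5). Over the 9 the median response was 1.97 in retaining and 0.21 in lacking lines.

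In the transcription and chromatin group, Hand1, a basic helix-loop-helix factor of trophoblast giant cells and extraembryonic mesoderm, had the largest difference. Its signal with LIF was 5.70, 5.52, 5.39, 5.39 and 5.46 in retaining and 6.16, 6.61 and 6.51 in lacking lines. Without LIF it was 9.92, 9.92, 9.19, 8.86 and 6.84 and 6.94, 7.39 and 6.94. The classes overlapped without LIF because deltaMBD, at 6.84, lay below all 3 lacking lines. Lef1, a Wnt effector of the primed epiblast, went from 5.69, 5.22, 5.22, 5.25 and 5.15 to 8.21, 7.95, 8.03, 8.28 and 7.23 and from 6.15, 5.76 and 6.00 to 7.16, 7.51 and 7.17, so it rose in every line of either class. The remaining 7 members here, such as the genome organizer Satb1 and the SMAD and androgen receptor cofactor Zmiz1, had smaller differences in response than Hand1, and the median response over all 9 was 1.47 in retaining and -0.03 in lacking lines.

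Signalling members were led by Nrk, a kinase of the placental spongiotrophoblast. Nrk went from 5.51, 5.24, 5.07, 5.16 and 4.64 to 9.16, 9.48, 8.92, 9.04 and 7.44 in retaining lines and from 5.80, 6.19 and 5.81 to 6.23, 6.88 and 6.77 in lacking lines, apart in both conditions. Dab2, an endocytic adaptor of extraembryonic endoderm, went from 6.00, 5.67, 5.64, 5.59 and 5.14 to 9.08, 8.39, 8.08, 8.60 and 7.37 and from 6.68, 7.33 and 6.80 to 7.57, 7.69 and 7.36, overlapping without LIF through deltaMBD. The phosphatases Dusp9, Dusp14 and Ptpn13, the Rab5 exchange factor Rin3, the engulfment adaptor Gulp1 and the kinase Cdk18 made up the 8. Cell death and stress members were the initiator caspase Casp8, Ier3, the 14-3-3 protein stratifin (Sfn), the small heat shock protein Cryab and the mitophagy receptor Bnip3, with retaining responses of 1.75 to 3.20 and lacking responses of -0.09 to 0.77.

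Among enzymes, Nox4, an NADPH oxidase that makes hydrogen peroxide, separated most cleanly. Its signal with LIF was 3.95, 3.93, 4.07, 4.22 and 3.82 in retaining and 4.95, 5.01 and 5.09 in lacking lines, and without LIF it was 7.03, 7.20, 7.23, 7.46 and 6.70 and 4.93, 4.88 and 4.90. The lacking lines stayed between 4.88 and 5.09, with a mean 1.02 above that of the retaining lines with LIF, and each of the 3 lay slightly lower without LIF. Ctsc, the dipeptidyl peptidase cathepsin C, was 6.72, 6.36, 5.89, 6.46 and 6.08 with LIF and 8.49, 8.53, 8.52, 8.69 and 7.87 without in retaining lines, and 8.11, 7.85 and 7.60 and 7.16, 7.63 and 7.62 in lacking lines. Cpe, carboxypeptidase E of prohormone processing, met the rule in another way. It was 6.42, 6.85, 6.63, 6.76 and 6.82 with LIF and 6.28, 6.92, 6.79, 7.15 and 6.74 without in retaining lines, a response of 0.08 ± 0.21 (SD, n = 5). In lacking lines it went from 7.84, 7.60 and 7.67 to 5.62, 6.29 and 6.03, a response of -1.72 ± 0.46 (SD, n = 3), so the crossing came from a fall in lacking lines and not from a rise in retaining ones.

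Metabolic members fell into 2 groups. The 4 of hypoxia and sugar metabolism (aldolase C, Pgm1, the oxygen sensor Egln1 and the hypoxia-induced Fam162a) had retaining responses of 0.80 to 1.08 and lacking responses of -0.59 to -0.27. The 8 of lipid and sterol metabolism included Fdps and Dhcr7 of cholesterol synthesis, the fatty acid carrier Fabp5 and the ceramide synthase Cers4. Their retaining responses were 0.81 to 2.42 (median 1.65) and their lacking responses -0.37 to 0.91. They had a median difference of 0.77 with LIF and -0.59 without, and 1 of the 8 had classes apart in both conditions. Immune defence members were the interferon-inducible GTPase Irgm1 and tapasin (Tapbp). Irgm1 was 4.02, 4.43, 4.20, 3.92 and 4.09 in retaining and 5.58, 5.98 and 5.97 in lacking lines with LIF and 8.43, 7.76, 7.71, 8.11 and 6.81 and 7.22, 7.32 and 7.20 without. It rose in every line, and deltaMBD without LIF lay below all 3 lacking lines.

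A few members outside these roles had large values. Psors1c2 differed by 2.11 with LIF, at 4.72, 4.19, 4.18, 4.53 and 4.10 in retaining and 6.56, 6.50 and 6.29 in lacking lines. Without LIF it was 7.53, 7.72, 7.73, 7.98 and 6.96 and 7.60, 6.99 and 6.58, so Empty and deltaCC lay within the retaining range. Nxf7, an X-linked relative of the mRNA export factor NXF1, was 4.43, 4.03, 3.82, 3.89 and 3.98 and 4.54, 4.94 and 5.25 with LIF and 8.30, 8.20, 7.22, 6.38 and 5.42 and 5.08, 5.50 and 5.44 without, so that deltaMBD without LIF lay just below deltaMBD&CC and deltaCC. Pttg1, securin, which holds sister chromatids together until anaphase, went from 6.22, 5.95, 5.72, 5.67 and 5.48 to 7.42, 7.15, 7.00, 6.79 and 6.06 and from 7.09, 7.29 and 7.17 to 6.71, 6.25 and 6.04, down in all 3 lacking lines.

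The mean response to LIF withdrawal over all 8 lines is a contrast that the thresholds of the rule did not use, although it comes from the same 16 arrays. The rule does place the lacking response below the retaining one (lacking minus retaining at most -1.06 in every member). A member must therefore rise in retaining lines, fall in lacking lines, or both, so the counts below are not independent support. By limma, 98 of 100 members rose and 1 fell, where 33.9% of all 22872 tested genes passed (19.8% higher, 14.1% lower; 42.7% at an unadjusted p under 0.05). Among the 12371 tested genes whose highest signal was above 7, as the rule also asks, 51.2% passed (28.1% higher, 23.1% lower). The median member response was 1.24 and that of all tested genes 0.02. The model gives each class its own mean, so the SEs below leave out the gap between the classes. A small SE does not state that all 8 lines rose. The signal minimum favours genes that are high in retaining lines without LIF: 25 members reached it only there, and all 25 rose, while of the other 75 members 73 rose and 1 fell. The smallest p-values belonged to Nox4 (1.91 ± 0.06, SE, n = 8 lines, adjusted p = 2.44e-08), Anxa3 (2.54 ± 0.09, adjusted p = 2.44e-08), the chondroitin sulfotransferase Chst15 (2.35 ± 0.09, adjusted p = 3.55e-08), Podxl (1.96 ± 0.08, adjusted p = 9.98e-08) and Kcnk1 (1.97 ± 0.09, adjusted p = 1.29e-07). Nox4 and Chst15 are among the 25 members that reached the signal minimum only in retaining lines without LIF. In the lacking lines Nox4 did not rise, with responses of -0.02, -0.13 and -0.19. Cpe fell by 0.60 ± 0.10 (adjusted p = 0.000742) and Aldoc did not pass (0.28 ± 0.12, adjusted p = 0.109). Retaining lines make up 5 of the 8, so this mean leans on them; with the class left out of the model 84 members rose and 0 fell (15.1% and 9.89% of genes). Within the first run of titles 99 rose (23.6% of genes), with a median response of 1.63. Within the second, of 3 lines, 0 members and 0 genes passed in limma, with a median of 0.53 and with 71 members and 18.5% of genes at an unadjusted p under 0.05.

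Line by line, the median response over members was 1.81, 1.91, 1.95, 1.98 and 1.38 in the retaining lines, in the order given above, and 0.30, 0.10 and 0.07 in the lacking lines. Over all genes above the signal minimum it was -0.03, 0.02, 0.11, 0.01 and 0.05 in the retaining lines. In the lacking lines it was 0.03, 0.02 and -0.05. Members that rose by at least 1 numbered 94, 93, 93, 91 and 71 in the retaining lines and 6, 7 and 3 in the lacking lines. The rule favours such a gap between the classes, so these counts are a description. The share of all genes that rose by at least 1 was not computed for each line. By member medians, the first 4 lines were close to one another, with deltaMBD between them and the lacking lines, as the plot of responses by line shows.

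**Figure D3:**
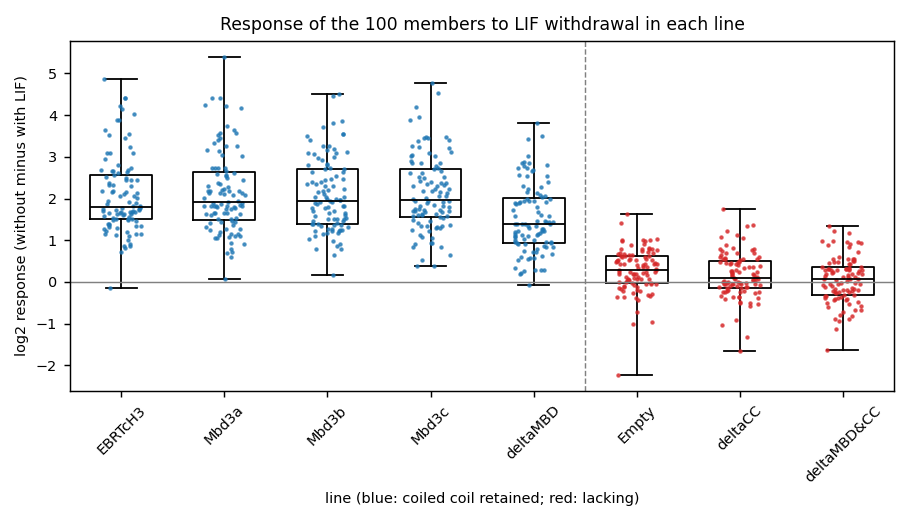
Log2 response to LIF withdrawal (vertical axis) of the 100 members in each of the 8 lines (horizontal axis), with retaining lines in blue and lacking lines in red; boxes give the quartiles and median, whiskers the range, and points the members. Medians are 1.81 to 1.98 in the first 4 lines, 1.38 in deltaMBD and 0.07 to 0.30 in the lacking lines.

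Whether deltaMBD differs from the other 4 retaining lines is also a contrast that the thresholds of the rule did not use. The signal minimum does lean on these arrays, since the highest array was a retaining one without LIF in 97 members. It favours genes that are high in the other 4 lines without LIF, so the counts without LIF are not independent support. Lipg reached the minimum only through those 4 lines. Without LIF, 88 members were lower in deltaMBD and 12 higher, with a median of -0.54 against 0.01 over all tested genes. By limma, 4 members passed, all lower, where 0.0656% of the 22872 genes passed (0.0306% higher, 0.035% lower). They were Lipg (-1.45 ± 0.13, SE, adjusted p = 0.0379), S100a6 (-1.37 ± 0.14, adjusted p = 0.0411), Anxa2 (-1.66 ± 0.19, adjusted p = 0.0454) and Nrk (-1.71 ± 0.20, adjusted p = 0.0454). For Lipg the 4 other retaining lines were at 7.61, 7.54, 7.38 and 7.35 without LIF and deltaMBD at 6.02, below the lacking lines at 6.10, 6.26 and 6.25. Csf1 (-1.43 ± 0.18, adjusted p = 0.0609), Pmp22 (-1.90 ± 0.32, adjusted p = 0.129) and Hand1 (-2.63 ± 0.40, adjusted p = 0.129) did not pass. At an unadjusted p under 0.05 were 61 members and 12.7% of genes. With the line as a random block over both conditions 16 members passed, all lower, where 0.442% of genes passed (0.258% lower). No member passed without Mbd3a, Mbd3b, Mbd3c, deltaCC or deltaMBD&CC, where 0% to 0.00437% of genes passed. The lone deltaMBD array is taken to vary like the others, and construct and run of titles cannot be told apart.

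With LIF, deltaMBD did not stand apart from the other retaining lines in the same way. By limma 0 members and 0 of all genes passed (19 members and 17.2% of genes at an unadjusted p under 0.05). With the random block 0 members and 0.297% of genes passed. The member median was -0.03 against 0.07 over all genes. Among lacking lines, Empty minus the mean of deltaCC and deltaMBD&CC gave 0 passing members in limma in either condition (0% of genes). With the random block it also gave 0, where 0.0743% of genes passed with LIF and 0% without. With LIF the median was -0.23 against -0.09 over all genes, 79 members were lower in Empty, and 20 had an unadjusted p under 0.05 (12.8% of genes). Without LIF the median was -0.07 against 0.02, and 7 had an unadjusted p under 0.05 (3.79% of genes).

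**Figure D4:**
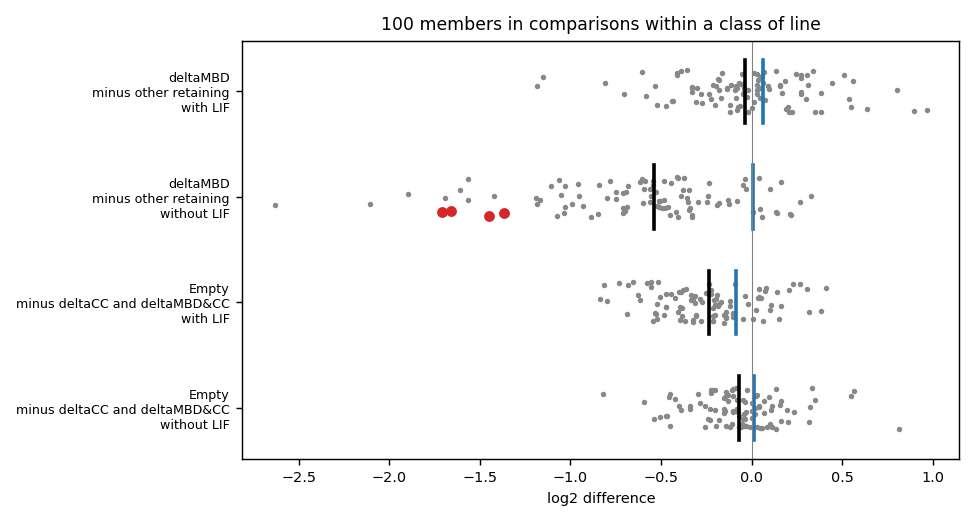
Log2 difference (horizontal axis) of the 100 members in 4 comparisons within a class of line (rows), 1 point per member, with red points for members that passed at an adjusted p under 0.05. Black bars are the member medians and blue bars the medians of all tested genes; without LIF the black bar of deltaMBD stands at -0.54 and the blue bar at 0.01.

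The class differences were also computed within each run of titles. These use the arrays that chose the members, so their signs are favoured by the rule and are a description. With LIF, 99 members were higher in lacking lines in the first run and 100 in the second, with medians of 0.57 and 0.86 (51.1% and 50.9% of the 12137 genes were higher). Without LIF, 100 were lower in the first run and 85 in the second, with medians of -0.97 and -0.42 (46.1% and 59.1% of genes were lower). For Pmp22 the difference with LIF was 0.87 and 1.53, and without LIF -3.77 and -1.64. Hand1 was -2.53 in the first run and 0.33 in the second without LIF. The full rule was met by 77 genes in the first run (0.634% of the 12137) and by 97 in the second (0.799%). The runs shared 25 genes, 32.5% of the first and 25.8% of the second, of which 23 were members. In the second run deltaMBD is the only retaining line, and in the first Empty is the only lacking one.

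Other genes of the lineages and pathways touched by these members were tested over the 8 lines with the same limma fit, in which 19.8% of all genes rose and 14.1% fell. Of 22 trophectoderm genes 18 rose and 1 fell (median 0.76), with Hand1 the only member. Of 14 primed epiblast genes 9 rose and 1 fell (median 0.71), with Lef1 the only member. Of 21 endoderm genes 11 rose and 5 fell (median 0.30), with Dab2 the only member, and of 17 mesenchyme and matrix genes 11 rose and 2 fell (median 0.61), with Bgn the only member. Lysosome and tetraspanin genes were divided, with 4 of 15 higher and 5 lower (median 0.08), and Ctsc was the only member. No member was on the pluripotency list, where 2 of 18 rose and 15 fell (median -0.88), or among the imprinted genes, where 13 of 17 rose and 2 fell (median 0.66). The same held for the TGF-beta and BMP list (12 rose and 4 fell of 20, median 0.52), the 2-cell-like list (4 and 0 of 6, median 0.79), the interferon list (10 and 1 of 17, median 0.40) and the receptor and guidance list (5 and 2 of 11, median -0.07). The lists do not hold every gene of a pathway or family. The members Tgfbr3, Irgm1, Tapbp, Epha1 and Sema3f are not on them. Of names left out by the rule only Lamp1 and Lamp2, on the lysosome list, are on these lists. Igf2, an imprinted gene (1.39 with LIF and -2.53 without), and Gbp2, an interferon-inducible one (0.57 and -3.22), met both thresholds and were left out by name. The lists were written with earlier results of these data in view, so their counts are descriptions.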

How the data were processed

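Total RNA of 8 lines in 2 conditions was labelled with the Affymetrix WT Plus Kit, 1 array each. The authors deposited log2 signals, for which RMA and affy are named per the submitters' processing notes; neither versions nor probe set definitions are given in the sources used here. Of 65770 probe sets, 30439 carry a single gene symbol (2146 several, 33185 none, 27 without values). Symbols were updated by Entrez identifier for 827 of 22653 matched probe sets, and the probe set of highest mean signal was kept per gene.

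Tests used limma 3.58.1 in R 4.3.3 with Benjamini-Hochberg adjustment over 22872 genes above the array's 40th percentile on at least 3 arrays; all 100 members are among them, and the threshold was an adjusted p of 0.05. LIF withdrawal over 8 lines was fitted on each line's paired difference with a class term. Both arrays of a line come from that line, as the labels state, and their deviations from the group means correlated at -0.05 to 0.28. The other 4 tests compare lines within a class and condition. The number of arrays limits the precision.

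Members, lists, tests and roles were chosen with earlier results of these data known. Genes named by rule are Pmp22, the 12 members with the largest difference in response, the 8 with the largest class difference in each condition, those nearest each threshold, members on lists, and up to 5 that passed each test; other members are named for their role, chosen after their values were seen.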

Additional observations from a re-analysis of the deposited data

Results flagged for a closer look

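In the retaining lines, 64 groups of 5 arrays (32 named members in 2 conditions) were searched for an array far from the other 4, and 10 were found. Chance gives about 1 in 20 for independent groups, but these groups share arrays. Lipg was named only, and Anxa2, Nrk and S100a6 partly, for passing the deltaMBD test on the same arrays. The count is therefore a description. Of the 10, 6 were deltaMBD without LIF, the lowest retaining line for each: Anxa2 at 8.91, Csf1 at 7.88, Ctsc at 7.87, Lipg at 6.02, Nrk at 7.44 and S100a6 at 7.40. With LIF, EBRTcH3 stood above the other retaining lines for Cnn2 at 8.71 and for Lef1 at 5.69, and deltaMBD for Fam162a at 8.84. Without LIF, EBRTcH3 stood above the others for Ly6e at 11.38.

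In 17 members every retaining line rose and every lacking line fell with LIF withdrawal. Among the named members these were Nox4, Mal, Nt5e and Pttg1, whose responses differed, lacking minus retaining, by -3.24, -2.51, -2.35 and -1.93. The difference was not tested, since the rule that chose the members fixes its sign.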

How the results depend on the processing

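The number of members was 168, 59 and 7 with thresholds of 0.4, 0.6 and 1 log2, 89 to 129 with a line left out, and 70 to 117 under the other signal minima, probe set, centring and median settings. For LIF withdrawal, 91 to 99 members rose with a line left out (15.5% to 21.3% of genes) and 97 with no replicate block (20% of genes). With no class term 0 fell (9.89% of genes). Within the second run of titles the median response over members was 0.53. Within that run the responses of Fam162a, Mal, Nt5e and Pttg1 were -0.10, -0.17, -0.36 and -0.53. The number lower in deltaMBD without LIF was 1 with no filter on low signal (0.00332% of genes) and 16 with the replicate block (0.258%). With a line left out it was 0 to 5 (0% to 0.0525%). The replicate block changed no other count of members by over 1.5 times. Within the second run the class difference without LIF turned to 0.16 for Dab2, 0.33 for Hand1, 0.45 for Irgm1, 0.11 for Lef1, 0.24 for Lipg, 0.05 for Nxf7 and 0.085 for Pttg1. That run holds 3 lines, with deltaMBD the only retaining one. Other settings kept the direction of the named members' LIF responses and class differences. Over all settings, the second run included, 498 LIF responses stayed on the same side of the threshold and 42 no longer passed. For the named members that passed the deltaMBD test, 21 results still passed under other settings and 23 no longer did. Of the class differences, 848 moved by less than the spread between lines and 41 by more. The reversals named above are counted apart. Signal near the array's background limits what can be measured for 8 members, among them Nox4, Capn6, Psors1c2 and Bgn, in retaining lines with LIF.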
